A study of Mus musculus with 72 samples.

Results

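The liver response to a high-fat diet was measured in male offspring of calorie-restricted (CR20) dams, as 6 CR20-HFD against 6 CR20-CTRL liver libraries, which were taken by their labels from the 72 libraries of the study. The 6 CR20-CTRL mice ate a diet with 10% fat, the 6 CR20-HFD mice a diet with 45% fat, and each library came from 1 mouse. CR20 dams received 20% less food than a paired FED dam from embryonic day 15 until weaning on postnatal day 21, so that both groups shared the maternal restriction and differed in the later diet. The diets began at 8 weeks of age. The methods give 10 weeks of diet for these mice, while the labels leave 10 or 16 weeks open. All mice were of the sighted FVB strain, FVB.129P2-Pde6b+ Tyrc-ch/AntJ. The 12 liver libraries of the offspring of FED dams, which ate the same diets in groups of 6 (FED-CTRL and FED-HFD), served as a second set of mice for the same diet contrast. How many litters the mice came from was not stated, so that littermates may be among them and the p-values measure the spread between these mice.

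The liver makes fatty acids from carbohydrate by de novo lipogenesis. Glucose is broken down to acetyl-CoA in mitochondria, ATP citrate lyase and acetyl-CoA synthetase supply acetyl-CoA in the cytosol, acetyl-CoA carboxylase and fatty acid synthase build the chain, and elongases and desaturases finish it before it is joined to glycerol. The transcription factors SREBP-1c (Srebf1) and ChREBP (Mlxipl) drive these genes in response to insulin and to sugar, and a diet in which fat replaces carbohydrate is known to lower them. The liver also oxidizes fatty acids under PPAR alpha, makes bile acids and cholesterol, and clears drugs, steroids and lipids with cytochrome P450 enzymes under the receptors CAR (Nr1i3) and PXR.

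The total count per library was 12717080 to 19928212 in CR20-CTRL and 12099226 to 17056194 in CR20-HFD, and the detection limit, set at 3 counts, corresponded to 0.148 to 0.245 CPM (the count as a share of the library total, scaled with TMM factors), a limit that covers counting error only. Hepatocyte markers made up 92100 to 135000 CPM in CR20-CTRL and 99400 to 122000 CPM in CR20-HFD, and of the 9 that were matched none passed the test. In a principal component analysis of the 500 most variable genes, 6 of the 24 liver libraries stood apart on the first component, which held 51.1% of the variance. Among them were CR20-CTRL mice 4 and 5 and CR20-HFD mouse 32, in which the nuclear RNA Malat1 was at 7.28 to 21.7 CPM, against 185 to 476 CPM in the other 9 CR20 libraries. The calls of named genes that changed without all 6 libraries are given below. On the second component, which held 13.5%, CR20-CTRL libraries lay between 2.20 and 19.21 and CR20-HFD libraries between -9.97 and 0.65, with no overlap.

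Of 13787 genes tested by edgeR, 52 were called between CR20-HFD and CR20-CTRL, defined by an adjusted p-value up to 0.055 together with a log2 fold change (log2FC) of 1 or more in size. This was 0.377% of the genes tested. Most called genes were lower on the high-fat diet, 41 (0.297%) against 11 higher (0.0798%), with a median log2FC of -2.01 for the lower and 1.38 for the higher genes, while the median over all tested genes was 0.00. Genes of fatty acid synthesis were the list with most calls, 11 and all lower, led by Scd1, which fell 41.9-fold. The called higher genes included Cyp2c37 and the noncoding RNAs Meg3 and Rian. Cyp2c50, Cyp2c54 and the receptor gene Nr1i3 rose at the adjusted p-value, but with a log2FC under 1. At any fold change, 74 genes passed the adjusted p-value (0.537% of those tested), 20 higher (0.145%) and 54 lower (0.392%). At an unadjusted p under 0.05 there were 1320 genes (9.57%), 527 higher (3.82%) and 793 lower (5.75%). The called genes were 43 protein-coding genes, 6 long noncoding RNAs, 2 processed pseudogenes and 1 gene of another type, and 8 of them, all lower, had a predicted name only. In 25 of the 52 the 6 CR20-HFD mice did not overlap the 6 CR20-CTRL mice, against 0.508% of all tested genes. The genes were called from these same mice, which favours groups without overlap. At the edge of the call stood Apcs, with an adjusted p-value of 0.0542, and Rnd2, with 0.0553, which was not called.

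**Figure D1:**
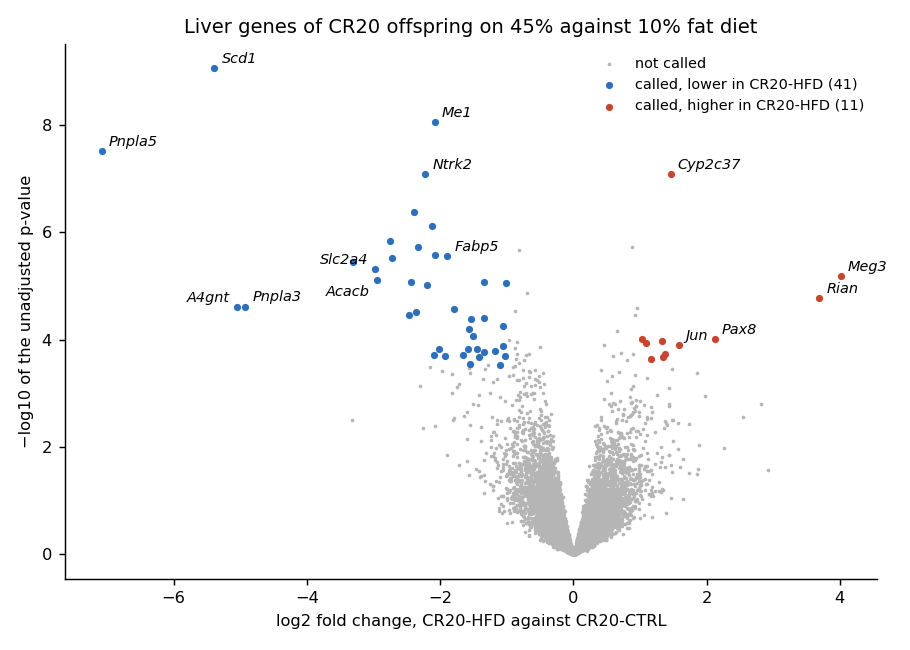
Each point is 1 of the 13787 liver genes, with its log2 fold change between CR20-HFD and CR20-CTRL (6 mice each) on the horizontal axis and the negative log10 of its unadjusted p-value on the vertical axis; the 41 called lower genes are blue and the 11 called higher genes red. The lower side holds the points farthest out, Scd1 and Pnpla5, and on the higher side Cyp2c37 has the smallest p-value and Meg3 and Rian the greatest change.

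The count differed between the fits. When the 12 CR20 libraries were fitted alone, without the 12 FED libraries, 11 genes were called, 1 higher and 10 lower, and all 11 were among the 52. Under limma voom with quality weights, the test of the study's methods, 67 genes were called and 35 of them were among the 52. There Rian, Slc45a3, Pnpla3, Stard4, Gpam, Acss2 and Cyp3a11 missed the threshold, with adjusted p-values of 0.0591, 0.149, 0.0819, 0.0783, 0.0840, 0.0896 and 0.0900, and Acaca, Thrsp and Fasn passed it, at 0.0062, 0.0186 and 0.0352. Without the 6 libraries that stood apart, 52 genes were called again, of which 33 were shared. There Gpam, Acss2, Cyp3a11, Slc16a11, Sucnr1, Apcs, Them7 and Slc45a3 missed the threshold, with adjusted p-values of 0.127, 0.152, 0.108, 0.126, 0.0942, 0.0924, 0.130 and 0.183, as did Elovl5, Nr1i3, Rian and Stard4, and Acaca passed it, at 0.0269. A single mouse also moved the count. Without CR20-HFD mouse 7 the count was 24, without CR20-CTRL mouse 47 it was 29 and without CR20-CTRL mouse 49 it was 34. With each of the 12 mice left out in turn, 30 of the 74 passing genes passed every time, 6 higher and 24 lower, and none of the 74 changed sign.

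Scd1, which encodes the stearoyl-CoA desaturase that makes monounsaturated fatty acids, showed the clearest difference of all genes. It lies on chromosome 19 (GRCm39 chr19:44382894-44399154, minus strand). In CR20-CTRL its level was 4070 CPM at the lowest, 11200 at the median and 13400 at the highest. In CR20-HFD it was 82.6, 236 and 384 CPM. The lowest control mouse was thus far above the highest mouse on the high-fat diet. The log2FC was -5.39 (SE 0.562) with an adjusted p-value of 1.21e-05 by edgeR, and the exact permutation test over the 12 mice (two-sided) gave p = 0.00216, the smallest that the divisions of 12 mice into 6 and 6 allow. Scd1 passed with every mouse left out and under every alternative, including the fit of the 12 CR20 libraries alone.

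Genes that supply the carbon and reducing power for fatty acids fell together with Scd1. Me1, malic enzyme, which makes NADPH (chr9:86462646-86578104, minus strand), ranged from 135 to 385 CPM with a median of 262 in CR20-CTRL and from 43.6 to 71.6 CPM with a median of 64.1 in CR20-HFD. The groups did not overlap, and the log2FC was -2.08 (SE 0.244, adjusted p = 6.05e-05). Acly, ATP citrate lyase, was 198, 392 and 1160 CPM at the lowest, median and highest in CR20-CTRL and 91.6, 155 and 206 CPM in CR20-HFD. The log2FC of Acly was -1.92 (SE 0.441, adjusted p = 0.0431), and its groups overlapped in the lowest control mouse. Acss2, the cytosolic acetyl-CoA synthetase, had a median of 299 CPM in CR20-CTRL and of 99.0 CPM in CR20-HFD, with a log2FC of -1.45 (SE 0.322, adjusted p = 0.0392). Pklr, the liver pyruvate kinase at the end of glycolysis, had medians of 296 and 122 CPM (log2FC -1.34, SE 0.303, adjusted p = 0.0431).

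Acacb and the elongase genes Elovl6 and Elovl5 also fell, while the chain-building genes Acaca and Fasn did not pass by edgeR, as given below. Acacb, acetyl-CoA carboxylase 2, whose malonyl-CoA restrains fatty acid entry into mitochondria (chr5:114284307-114388822, plus strand), was at 60.6, 96.4 and 248 CPM in CR20-CTRL and at 7.21, 16.2 and 28.3 CPM in CR20-HFD. Its groups did not overlap, at a log2FC of -2.95 (SE 0.524, adjusted p = 0.00571). Elovl6, the elongase of saturated fatty acids, was at 92.6, 180 and 525 CPM against 20.1, 43.2 and 81.8 CPM, again without overlap (log2FC -2.47, SE 0.489, adjusted p = 0.0150). The long noncoding RNA gene Gm35986 was called as well (log2FC -2.75). It lies on the opposite strand, and its start overlaps the start of Elovl6 (chr3:129321082-129326037 against chr3:129326004-129432144). Since the strand setting of the counting was not stated, the reads of Gm35986 and Elovl6 may not be fully separated. Elovl5, the elongase of polyunsaturated fatty acids, was at 379, 681 and 1290 CPM in CR20-CTRL and at 250, 314 and 396 CPM in CR20-HFD. Its log2FC was -1.34 (SE 0.240, adjusted p = 0.00571), and without the 6 libraries that stood apart it was -0.84 with an adjusted p-value of 0.0795.

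At the step where fatty acids are joined to glycerol, Gpam, the mitochondrial glycerol-3-phosphate acyltransferase, was at 157, 383 and 810 CPM in CR20-CTRL and at 88.4, 144 and 160 CPM in CR20-HFD (log2FC -1.51, SE 0.322, adjusted p = 0.0314). The lipid droplet genes Pnpla3 and Pnpla5, neighbours of the patatin-like phospholipase family on chromosome 15, were also lower on the high-fat diet. Pnpla3 was at 0.228, 3.27 and 34.1 CPM in CR20-CTRL and at 0.0564, 0.194 and 0.673 CPM in CR20-HFD, and its log2FC was -4.93 (SE 0.951, adjusted p = 0.0131). The control values were widely spread and overlapped those on the high-fat diet. In CR20-HFD the Pnpla3 counts were 1 to 12, and mice 6, 7 and 31 were under the detection limit of 3 counts. The size of its log2FC is therefore uncertain. Pnpla3 missed the threshold under limma voom with quality weights (adjusted p = 0.0819) and without them (0.360) and with the 12 CR20 libraries fitted alone (0.136), and its log2FC was -3.98 without CR20-CTRL mouse 47. Pnpla5 gave 247 counts over the 6 CR20-CTRL libraries, at 0.289, 2.77 and 5.91 CPM, and 1 count over the 6 CR20-HFD libraries, 5 of which were at 0. The ratio of these counts, corrected for depth, was 0.434% with a 95% exact interval of 0.0109% to 2.44%, which covers counting error only. By edgeR the adjusted p-value of Pnpla5 was 0.000143, and its fitted log2FC rests on the prior count and is no bound.

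Over the whole list of de novo lipogenesis genes, 28 of 30 members were tested, since Scd3 and Scd4 were under the filter. Of the 28, 11 were lower at the adjusted p-value and none was higher, against 0.392% of all tested genes lower. The median log2FC of the list was -1.22 against 0.00 over all genes, and 26 of the 28 members were below 0. At an unadjusted p under 0.05, 19 were lower and none higher, against 5.75% of all genes lower. With each mouse left out in turn, 6 of the 11 passed every time, namely Scd1, Me1, Pnpla5, Acacb, Elovl5 and Pnpla3. Elovl6 missed the threshold without CR20-CTRL mouse 47 (adjusted p = 0.0578) or CR20-HFD mouse 7 (0.0568). Gpam, Acss2, Pklr and Acly missed it in 7, 8, 8 and 9 of the 12 cases, with adjusted p-values of up to 0.0991, 0.129, 0.133 and 0.134. The number of lower members was 6 without CR20-CTRL mouse 47 or CR20-HFD mouse 7, 7 without CR20-CTRL mouse 49 or CR20-HFD mouse 31 or 46, 7 in a fit with a term for the range of the animal number and 3 when the 12 CR20 libraries were fitted alone.

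Other central members of the list did not pass, some of them with large differences and a wide spread. Fasn, fatty acid synthase, was at 269, 1210 and 4320 CPM in CR20-CTRL and at 143, 294 and 850 CPM in CR20-HFD. Its log2FC of -2.08 (SE 0.658) had an adjusted p-value of 0.222, and under limma voom with quality weights one of 0.0352. Acaca, the cytosolic acetyl-CoA carboxylase, had a log2FC of -1.55 (SE 0.380) and an adjusted p-value of 0.0634. Thrsp, the lipogenic factor Spot 14, was just outside, at a log2FC of -1.53 (SE 0.364) and an adjusted p-value of 0.0554. For Srebf1 the log2FC was -1.09 (SE 0.335, adjusted p = 0.201). Mlxipl gave a log2FC of -0.25 (SE 0.433, adjusted p = 0.856), with 66.2 and 76.5 CPM in CR20-CTRL mice 4 and 5, which stood apart, and 526 to 636 CPM in the other 4 control mice. The sign of Mlxipl changed under limma voom without quality weights, to 0.17.

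**Figure D2:**
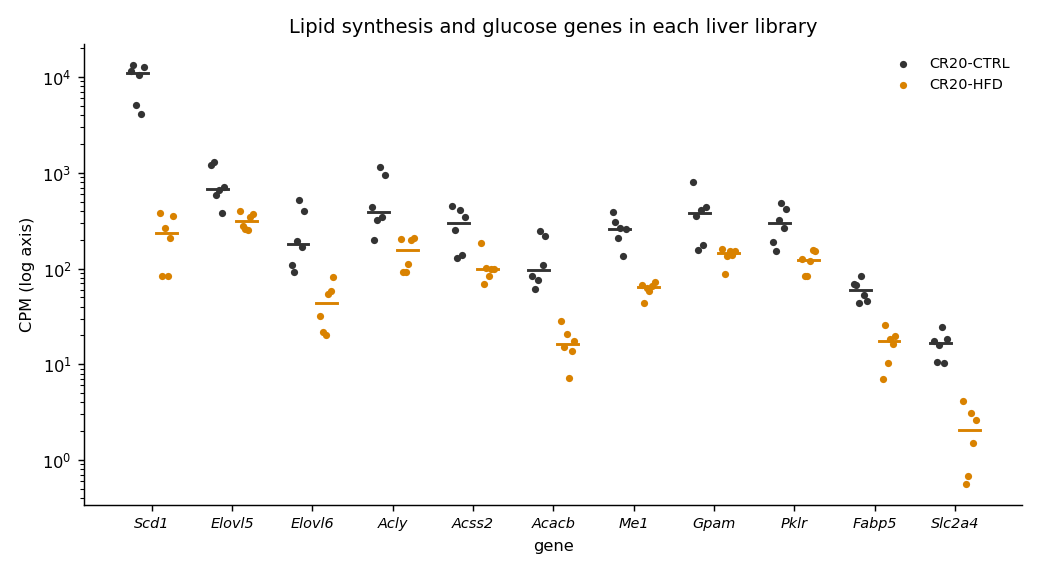
Points give the CPM of 1 liver library each on a log axis, dark for the 6 CR20-CTRL and orange for the 6 CR20-HFD mice, with bars at the medians; levels are for comparison within a gene and not between genes. Scd1, Elovl6, Acacb, Me1, Fabp5 and Slc2a4 show no overlap between the groups, while Acly, Acss2, Gpam, Pklr and Elovl5 overlap.

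The promoters of lipogenic genes that fell are shown here for their CCAAT boxes and E-boxes, elements through which NF-Y and basic helix-loop-helix factors such as SREBP and ChREBP are known to bind. The 250 bases before the start listed for each gene were taken from the RefSeq table of build GRCm38.p6, in which Scd1 has no entry. These listed starts were not compared with the GRCm39 gene positions given above, and may lie elsewhere in the gene. CCAAT was searched on both strands, as CCAAT or ATTGG, as was the palindrome CACGTG, and no 2 matches overlapped in the sequences shown. CCAAT was found for 8 of the 10 listed lipogenic genes that fell (Acacb, Acss2, Elovl5, Gpam, Me1, Pklr, Pnpla3 and Pnpla5), against 37.5% of all 27025 genes of the table and 40.3% of the liver genes tested. CACGTG was found for Elovl5 and Pnpla5, against 6.86% of all genes and 9.8% of the liver genes tested. A match is a description of the letters and not a site in use. Capitals mark the matches in the 4 promoters, each written 5′ to 3′ on the strand of the gene.
Pnpla3, chr15:84167566-84167815, plus strand: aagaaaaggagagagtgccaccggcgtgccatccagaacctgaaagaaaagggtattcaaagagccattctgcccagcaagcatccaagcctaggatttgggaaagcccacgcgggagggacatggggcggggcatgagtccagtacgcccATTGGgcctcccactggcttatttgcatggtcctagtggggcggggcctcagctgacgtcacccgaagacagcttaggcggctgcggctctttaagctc
Pnpla5, chr15:84123176-84123425, minus strand: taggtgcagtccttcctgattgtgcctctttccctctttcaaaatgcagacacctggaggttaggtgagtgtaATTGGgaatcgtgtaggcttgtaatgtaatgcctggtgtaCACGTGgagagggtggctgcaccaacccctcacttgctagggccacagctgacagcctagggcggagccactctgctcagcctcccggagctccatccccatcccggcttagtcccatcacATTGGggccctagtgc
Elovl5, chr9:77917115-77917364, plus strand: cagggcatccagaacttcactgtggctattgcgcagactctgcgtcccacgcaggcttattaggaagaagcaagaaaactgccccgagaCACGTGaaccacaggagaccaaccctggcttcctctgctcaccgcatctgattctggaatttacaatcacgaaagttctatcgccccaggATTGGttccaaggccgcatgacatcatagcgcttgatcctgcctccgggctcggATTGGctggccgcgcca
Acacb, chr5:114165268-114165517, plus strand: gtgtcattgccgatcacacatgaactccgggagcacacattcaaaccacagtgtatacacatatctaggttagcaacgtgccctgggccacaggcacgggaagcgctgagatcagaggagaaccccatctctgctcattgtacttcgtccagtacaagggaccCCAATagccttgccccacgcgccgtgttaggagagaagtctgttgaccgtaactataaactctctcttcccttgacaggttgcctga

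In Elovl5 and Pnpla5 the CACGTG lay 161 and 137 bases before the listed start, and a CCAAT box lay 17 and 16 bases before it. In Pnpla3 and Acacb the single CCAAT box lay 99 and 87 bases before the listed start.

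Genes outside the list that fell with it were of lipid handling, glucose uptake and other functions. Fabp5, a fatty acid binding protein, was at 43.8, 60.1 and 82.6 CPM in CR20-CTRL and at 7.05, 17.4 and 25.8 CPM in CR20-HFD, with no overlap (log2FC -1.89, SE 0.313, adjusted p = 0.00296). Slc2a4, the insulin-dependent glucose transporter GLUT4, known from muscle and fat, was at 10.2, 16.6 and 24.4 CPM against 0.564, 2.05 and 4.10 CPM. It fell 7.82-fold with no overlap (log2FC -2.97, SE 0.510, adjusted p = 0.00415). Ntrk2, the receptor for brain-derived neurotrophic factor, was at 21.7, 40.1 and 51.1 CPM against 4.26, 6.96 and 14.1 CPM (log2FC -2.22, SE 0.296, adjusted p = 0.000229), again with no overlap. Adipocyte markers (Adipoq, Lep, Retn, Cfd and Plin1) summed to at most 1.18 CPM in any CR20 liver library and none reached the filter.

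Of the other lower genes with a name, Prss8, a membrane serine protease, had a median of 5.10 CPM in CR20-CTRL and 1.24 CPM in CR20-HFD (log2FC -2.08, SE 0.343, adjusted p = 0.00296). Gask1a, a Golgi protein, had medians of 4.93 and 0.930 CPM, a log2FC of -3.30 (SE 0.555) and an adjusted p-value of 0.00324. Rims4, a gene of synaptic release, had a log2FC of -2.72 (SE 0.453), and the transcription factor gene Tcf24 one of -2.43 (SE 0.433), which was -1.76 without the 6 libraries that stood apart. Nat8f7, of the N-acetyltransferase 8 family, had a log2FC of -2.33 (SE 0.376), and Tent5a, a poly(A) polymerase, one of -1.01 (SE 0.182). Reads of Nat8f7 may be shared with its near-identical family members. These genes and Fabp5, Slc2a4 and Ntrk2 passed with every mouse left out. When the 12 CR20 libraries were fitted alone, Gask1a, Rims4, Tcf24, Nat8f7 and Tent5a missed the threshold, with adjusted p-values of 0.0567 to 0.0880.

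Several more genes were chosen after their values were seen. Serpina12, which encodes the insulin-sensitizing adipokine vaspin, was at 76.5, 160 and 385 CPM in CR20-CTRL and at 22.3, 54.8 and 76.5 CPM in CR20-HFD (log2FC -1.79, SE 0.347, adjusted p = 0.0133). Sucnr1, the succinate receptor, had medians of 37.5 and 19.7 CPM and a log2FC of -1.05 (SE 0.231, adjusted p = 0.0379), and missed the threshold without 8 of the 12 mice. Acsl5, an acyl-CoA synthetase, fell less, from a median of 457 to one of 261 CPM (log2FC -0.70, SE 0.129, adjusted p = 0.00792). Sult1c2, a sulfotransferase, had medians of 13.0 and 7.46 CPM with no overlap (log2FC -0.82, SE 0.134, adjusted p = 0.00270). Slc16a11, a monocarboxylate transporter, had a log2FC of -0.84 (SE 0.182, adjusted p = 0.0346) and missed the threshold without 8 of the 12 mice. A4gnt, a glycosyltransferase, gave 96 counts over the 6 CR20-CTRL libraries and 2 over the 6 CR20-HFD libraries. The ratio was 2.23% with an exact interval of 0.266% to 8.28%, which covers counting error only. CR20-CTRL mouse 47 alone gave 51 of the 96 counts.

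Cyp2c37 and Cyp2c50, both cytochrome P450 genes, had the smallest p-values by edgeR of the higher genes, and only Cyp2c37 of them was called. Cyp2c37, an enzyme of the Cyp2c family that oxidizes arachidonic acid and drugs, was at 24.7, 50.3 and 58.8 CPM in CR20-CTRL and at 95.7, 134 and 143 CPM in CR20-HFD. It rose 2.74-fold with no overlap (log2FC 1.46, SE 0.194, adjusted p = 0.000229). Cyp2c50 rose from 181, 282 and 338 CPM to 452, 517 and 568 CPM, also with no overlap (log2FC 0.88, SE 0.142, adjusted p = 0.00259). Cyp2c54 was at 195, 262 and 365 CPM against 368, 443 and 687 CPM (log2FC 0.80, SE 0.185, adjusted p = 0.0472), and missed the threshold without 10 of the 12 mice, with adjusted p-values of up to 0.113. Nr1i3, which encodes the receptor CAR that controls Cyp2 genes, was at 47.2, 54.9 and 71.2 CPM against 78.8, 107 and 175 CPM with no overlap (log2FC 0.95, SE 0.185, adjusted p = 0.0132). Without the 6 libraries that stood apart, Nr1i3 had an adjusted p-value of 0.0752.

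The 3 Cyp2c genes lie beside each other on chromosome 19 (chr19:39980865-40000688, chr19:40025117-40062282 and chr19:40078085-40102430 for Cyp2c37, Cyp2c54 and Cyp2c50 in GRCm39), with no other tested gene between them. Their reads may be shared between near-identical copies, so that their separate values are uncertain. The promoters of Cyp2c37 and Cyp2c50 are shown because both genes rose and the sequences are alike, with 215 of 245 aligned bases identical (87.8%). Both hold 2 CCAAT boxes, in capitals, and no CACGTG, and Cyp2c54 has no entry in the table.
Cyp2c37, chr19:39992174-39992423, plus strand: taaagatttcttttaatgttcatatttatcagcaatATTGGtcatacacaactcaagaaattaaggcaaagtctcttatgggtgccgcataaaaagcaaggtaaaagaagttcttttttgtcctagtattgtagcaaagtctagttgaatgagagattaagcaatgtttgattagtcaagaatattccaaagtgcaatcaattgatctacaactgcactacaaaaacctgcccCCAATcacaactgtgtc
Cyp2c50, chr19:40089429-40089678, plus strand: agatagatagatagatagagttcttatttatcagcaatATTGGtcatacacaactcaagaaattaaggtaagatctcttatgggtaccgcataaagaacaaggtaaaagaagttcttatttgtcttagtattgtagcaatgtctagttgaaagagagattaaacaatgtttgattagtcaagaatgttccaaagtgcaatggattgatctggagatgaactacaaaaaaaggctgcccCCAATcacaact

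Other P450 genes fell. Cyp3a11, the main drug-clearing Cyp3a enzyme of mouse liver and a PXR target, was at 490, 1040 and 2370 CPM in CR20-CTRL and at 311, 363 and 608 CPM in CR20-HFD (log2FC -1.41, SE 0.325, adjusted p = 0.0438). It missed the threshold without 9 of the 12 mice, with an adjusted p-value of 0.157 without CR20-CTRL mouse 4, and under limma voom with quality weights (0.0900). Cyp2d40 had medians of 30.5 and 17.5 CPM with no overlap (log2FC -0.88, SE 0.172, adjusted p = 0.0136). Over the list of Cyp2 and Cyp3 genes and their receptors, 33 of 42 members were tested, 4 were higher (Cyp2c37, Cyp2c50, Nr1i3 and Cyp2c54), 2 were lower and 27 did not pass, against 0.145% of all tested genes higher and 0.392% lower, and the median log2FC was 0.15.

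Meg3 and Rian, maternally expressed noncoding RNAs of the imprinted Dlk1-Dio3 region, rose by more than any other called genes. Meg3 (chr12:109506877-109538165) was at 0.0816, 0.966 and 2.22 CPM in CR20-CTRL and at 2.59, 9.45 and 60.1 CPM in CR20-HFD. Rian (chr12:109570242-109628150), 32077 bases downstream, was at 0.0816, 0.543 and 0.689 CPM against 0.821, 4.45 and 20.9 CPM. Neither gene's groups overlapped, and CR20-HFD mice 7, 45 and 6 were the 3 highest in both. The log2FC was 4.01 (SE 0.703, adjusted p = 0.00524) for Meg3 and 3.69 (SE 0.693, adjusted p = 0.00962) for Rian. In the control mice the counts were low, 1 to 38 for Meg3 and 1 to 14 for Rian. Both passed with every mouse left out, but without CR20-HFD mouse 7, the highest, the log2FC was 2.99 for Meg3 and 2.83 for Rian. In addition, with the 12 CR20 libraries fitted alone the adjusted p-values were 0.117 and 0.0826, and without the 6 libraries that stood apart Rian had 0.0596.

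Jun, Marco and Pax8 were also among the called higher genes. Jun, the AP-1 transcription factor gene, was at 5.26, 10.4 and 13.3 CPM in CR20-CTRL and at 9.65, 23.7 and 64.6 CPM in CR20-HFD, where mice 45 and 46 were highest (log2FC 1.58, SE 0.347, adjusted p = 0.0379). Mice 45 and 46 were also the highest of CR20-HFD for Fos and Egr1, immediate-early genes like Jun, whose log2FC was 0.80 (SE 0.525, adjusted p = 0.601) and 1.17 (SE 0.645, adjusted p = 0.554). Without mouse 45 the log2FC of Fos was -0.15. Marco, a scavenger receptor of Kupffer cells, was at 3.64, 9.50 and 18.6 CPM against 12.6, 26.8 and 42.7 CPM (log2FC 1.35, SE 0.311, adjusted p = 0.0433). It was the only one of 12 Kupffer cell and macrophage markers to pass, and the summed level of the 12 was 489 to 1450 CPM in CR20-CTRL and 614 to 1010 CPM in CR20-HFD. In whole liver, more cells of a type and more RNA per cell cannot be told apart. Pax8, a transcription factor gene of thyroid and kidney, stood at 0 to 0.468 CPM against 0.842 to 2.31 CPM (log2FC 2.12, SE 0.457, adjusted p = 0.0334).

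Slc13a3, a dicarboxylate transporter (log2FC 1.03, SE 0.221), Them7 (1.33, SE 0.288), Eif4e3, a cap-binding protein (1.09, SE 0.238), Trim6, a ubiquitin ligase (1.38, SE 0.314), and Slc45a3, a sugar transporter (1.17, SE 0.273), had adjusted p-values of 0.0334 to 0.0460. Abcc3, the basolateral exporter of bile acids and conjugates, had medians of 116 and 202 CPM and a log2FC of 0.89 (SE 0.202, adjusted p = 0.0431). None of these genes, nor Jun, Marco or Pax8, passed with every mouse left out. They missed the threshold in 5 (Pax8) to 10 (Trim6, Marco and Abcc3) of the 12 cases, and without CR20-HFD mouse 7 the adjusted p-values were 0.0602 for Jun, 0.117 for Pax8, 0.129 for Marco and 0.142 for Trim6.

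**Figure D3:**
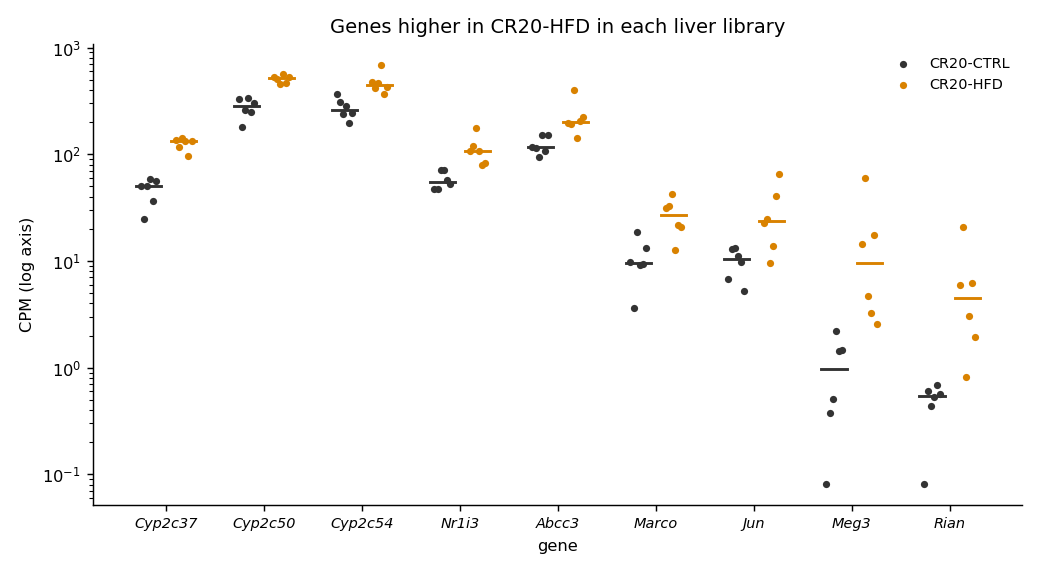
Points give the CPM of 1 liver library each on a log axis, dark for the 6 CR20-CTRL and orange for the 6 CR20-HFD mice, with bars at the medians; levels are for comparison within a gene and not between genes. The groups are apart for the 3 Cyp2c genes, Nr1i3, Meg3 and Rian, and overlap for Abcc3, Marco and Jun.

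Lists of other liver functions held few or no passing genes, where 0.537% of all tested genes passed. Of 35 genes of fatty acid oxidation and PPAR alpha targets, none passed (median log2FC 0.13, smallest adjusted p = 0.113), with 5 higher and 1 lower at an unadjusted p under 0.05, against 3.82% and 5.75% of all tested genes. Cpt1a, the entry step of mitochondrial oxidation, was at 182, 287 and 334 CPM in CR20-CTRL and at 256, 315 and 500 CPM in CR20-HFD (log2FC 0.33, SE 0.198, adjusted p = 0.575). Of 28 genes of cholesterol synthesis, Stard4, a sterol carrier, was lower (log2FC -0.86, SE 0.199, adjusted p = 0.0459), 26 of the 28 had a log2FC below 0 (median -0.42), and at an unadjusted p under 0.05 there were 9 lower and none higher. Stard4 missed the threshold without 9 of the 12 mice and without the 6 libraries that stood apart (adjusted p = 0.134). Of 26 bile acid genes, Abcc3 alone passed, and Cyp7a1, the rate-limiting enzyme of bile acid synthesis, had a log2FC of -0.05 (SE 0.375, adjusted p = 0.968), a sign that turned under several alternatives. Of 28 acute-phase genes, Apcs, serum amyloid P, was lower, at 117, 162 and 380 CPM against 65.8, 90.2 and 125 CPM (log2FC -1.10, SE 0.261, adjusted p = 0.0542). Apcs missed the threshold without 8 of the 12 mice. Of 30 genes of glucose metabolism and insulin signalling, Slc2a4 and Pklr were lower and 28 did not pass.

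None passed among 28 tested genes of lipid droplets, uptake and triglyceride synthesis, 30 sex-biased and growth hormone responsive genes, 26 of apolipoproteins, 30 of the unfolded protein and integrated stress response, 24 NRF2 antioxidant genes, 19 of the circadian clock, 20 of the glucocorticoid response, 25 of collagen and matrix, 32 of inflammation and interferon, 23 of the cell cycle, 54 of the respiratory chain and 27 hepatokines. The smallest adjusted p-value in these lists by edgeR was 0.063, among the sex-biased genes. At an unadjusted p under 0.05, against 9.57% of all tested genes, there were 8 of the 27 hepatokines and 7 of the 30 sex-biased genes, and 1 to 4 members of each of the other 10 lists. The medians of these 12 lists lay between -0.18 for the respiratory chain, where 47 of 54 members were below 0, and 0.26 for inflammation and interferon, where 26 of 32 were above 0. In the FED offspring the medians of these lists were 0.13 and 0.63, so that the sign of the respiratory chain median was the opposite. Of the 54 respiratory chain genes, 3 had an unadjusted p under 0.05 in CR20 offspring, all lower. Among markers of other cell types, none of the tested genes of monocyte-derived macrophages, lymphocytes, neutrophils, sinusoidal endothelial cells, stellate cells, cholangiocytes, pancreatic acinar cells or erythroid cells passed. Of the 4 erythroid markers tested, Alas2, Hbb-bt and Hbb-bs were lower at an unadjusted p under 0.05, and the summed level of all 6 was 68.3, 144 and 691 CPM at the lowest, median and highest in CR20-CTRL and 97.3, 153 and 211 CPM in CR20-HFD.

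**Figure D4:**
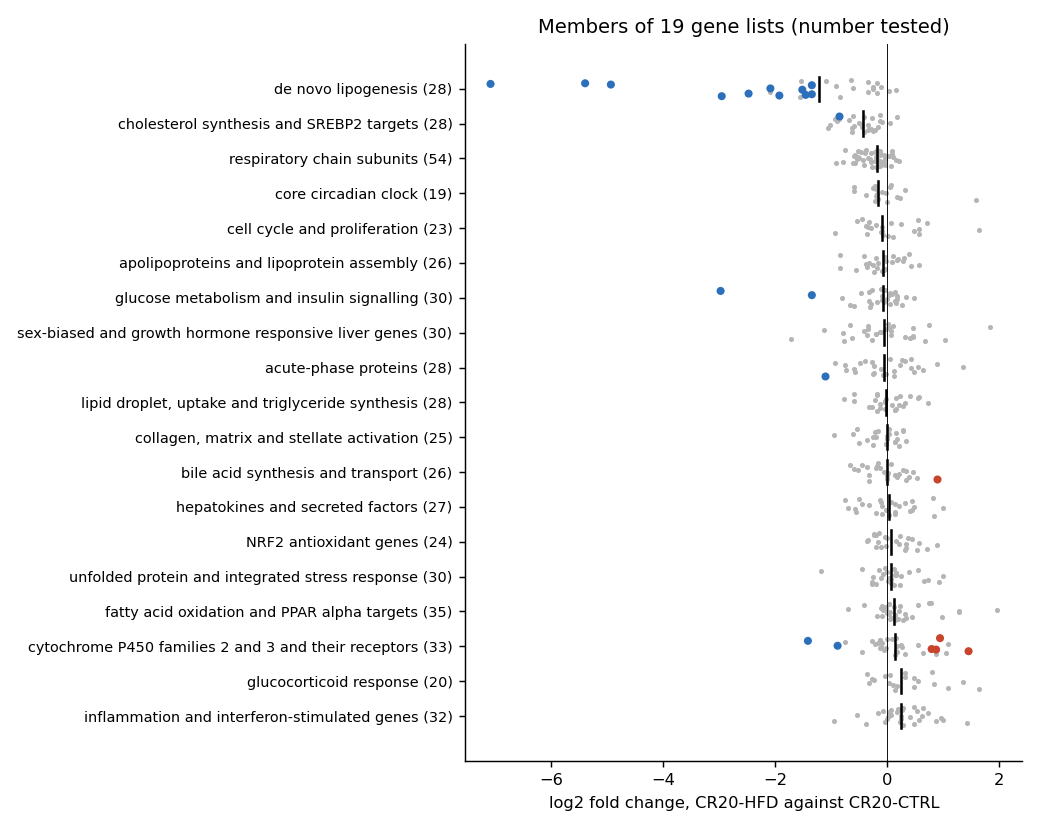
Each point is 1 tested member of 19 gene lists, with its log2 fold change between CR20-HFD and CR20-CTRL; blue and red points passed as lower and higher, grey points did not pass, and black bars are medians. De novo lipogenesis, with a median of -1.22, has 11 blue points, and no other list has more than 2.

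The same diet contrast in the offspring of FED dams gave 13 called genes (0.0943%), 3 higher and 10 lower. Of these 13, 11 were also called in CR20 offspring, which is 84.6% of the FED calls and 21.2% of the 52. The 11 were Scd1, Me1, Pnpla5, Prss8, Fabp5, Gask1a, Meg3, Eif4e3 and 3 with predicted names. Of the 52 genes, 51 had the same sign in the FED offspring, against 61.8% of all tested genes and 87.1% of those with an unadjusted p under 0.05, and 44 had an unadjusted p under 0.05 there, against 6.66% of all tested genes. Scd1 was at 3330, 6090 and 8630 CPM in FED-CTRL and at 79.2, 355 and 1030 CPM in FED-HFD, with a log2FC of -3.93 (SE 0.524, adjusted p = 0.00117). The log2FC was smaller in size in FED offspring for 49 of the 52 genes, with medians of -1.18 for the lower and 0.86 for the higher genes, but choosing genes by their size in CR20 offspring in itself favours smaller values in other mice.

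A test of the difference between the diet responses (the interaction of maternal group and diet) called no gene by edgeR, DESeq2 or limma. The smallest adjusted p-value by edgeR was 0.999, and 242 genes (1.76%) had an unadjusted p under 0.05, 9 of the 52 among them. The 52 genes were chosen by the CR20 response, which is part of this contrast, and this favours small unadjusted p-values among them. Jun had a log2FC of 0.00 (SE 0.341) in FED offspring, with 10.5 to 22.1 CPM in FED-CTRL and 10.5 to 23.2 CPM in FED-HFD, and an interaction of 1.58 (unadjusted p = 0.00323, adjusted p = 0.999). For Serpina12 the log2FC in FED offspring was -0.38 (SE 0.338) and the interaction -1.41 (unadjusted p = 0.00713, adjusted p = 0.999). For Fabp5 the log2FC was -1.98 (SE 0.319) in FED and -1.89 in CR20 offspring. The median of the lipogenesis list was -0.93 in FED offspring, where 3 of the 28 passed as lower, against 0.0798% of all genes.

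**Figure D5:**
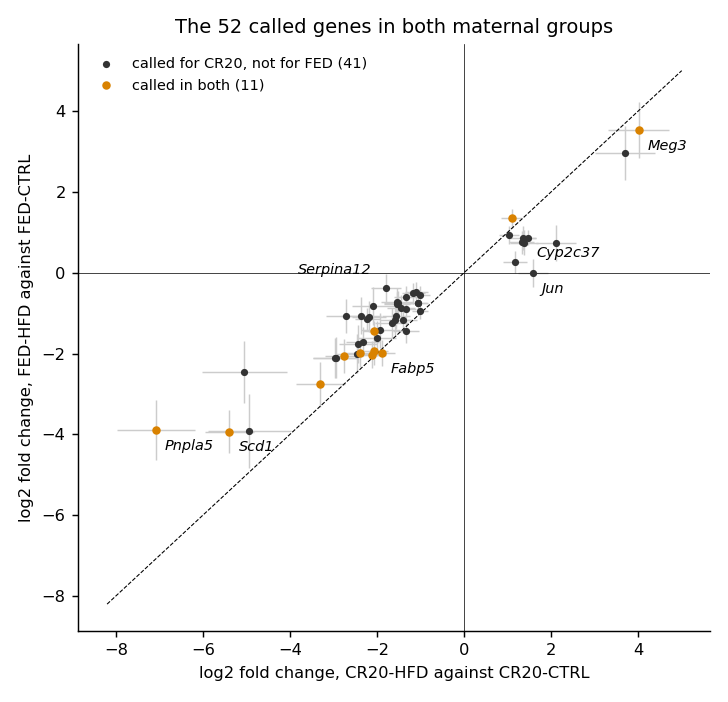
Each point is 1 of the 52 genes called in CR20 offspring, with its log2 fold change there on the horizontal axis and in FED offspring on the vertical axis, standard errors as grey lines and equal values on the dashed line; orange marks the 11 genes called in both. The points lie in the quadrants of equal sign, mostly nearer to 0 on the FED axis, and Jun lies at 0.00 on it.

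The labels give the mice animal numbers in 3 ranges, whose meaning is not stated, and both diets are found in each. All 52 genes had the same sign within the numbers under 20 (2 CR20-HFD against 2 CR20-CTRL mice) and from 40 on (2 against 3), and 50 of 52 within 20 to 39 (2 against 1), where Jun and H2-Q1 were the exceptions. Under 20, both CR20-CTRL mice (4 and 5) were among the libraries that stood apart and neither CR20-HFD mouse was. Diet and this split cannot be told apart in that range. Within 20 to 39, CR20-HFD mouse 32 stood apart and the CR20-CTRL mouse did not. The 52 genes were called from the difference over these same mice, which favours equal signs. Of all tested genes, 81.2% had the same sign under 20, 65.3% from 40 on and 44.1% within 20 to 39. Of those with an unadjusted p under 0.05 the shares were 98.3%, 91.8% and 65.2%. For Scd1 the differences of mean log2 CPM were -6.13 under 20, -5.10 within 20 to 39 and -4.92 from 40 on. For Meg3 they were 6.47 under 20, 2.66 within 20 to 39 and 1.94 from 40 on. A fit with a term for the range called 43 genes.

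In the other tissues of the same CR20 mice the diet contrast called no gene by edgeR. In epididymal fat (eWAT) 962 genes (6.03%) had an unadjusted p under 0.05 and the smallest adjusted p-value was 0.789, and in the pituitary 1212 genes (7.28%) and 0.340. Of the 52 liver genes, 35 were tested in eWAT, where 23 had the same sign as in liver, and 36 in the pituitary, where 12 had. The share of equal signs over all genes was not counted for these tissues. At an unadjusted p under 0.05 there were 5 of the 35 in eWAT and 3 of the 36 in the pituitary. Scd1 had a log2FC of 0.05 (SE 0.275) in eWAT and -0.04 in the pituitary, where the liver value was -5.39. Me1 had -0.52 (SE 0.258) in eWAT, and Slc2a4 -0.12 (SE 0.260).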

How the data were processed

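RNA of the left lateral liver lobe of 24 male mice was sequenced on a NovaSeq instrument after library preparation with a TruSeq Stranded kit. The authors trimmed the reads with Trimmomatic, checked them with FastQC, aligned them with STAR to GRCm39, counted them per Ensembl gene with featureCounts, and deposited the counts as whole numbers without normalization. The strand setting of the counting is not given in the sources used here. Of 55416 genes, 54749 were matched to GENCODE M39 by identifier, and 667 had no match. Identical libraries were not found within any group.

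All 24 liver libraries (4 groups of 6 mice) entered 1 model of group means in edgeR 4.0.16 in R 4.3.3 (filterByExpr, TMM factors, glmQLFit and glmQLFTest), with two-sided p-values adjusted by the Benjamini-Hochberg method over all 13787 tested genes. CPM values use TMM factors, and log2 CPM a prior count of 2. The standard error of a log2FC is its size over the square root of F. Single genes were also tested by a two-sided exact permutation test over all divisions of the 12 CR20 mice into 6 and 6, among the called genes at p-values of at most 0.0173. The fit was tested on simulated counts.

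Alternatives were limma 3.58.1 (voom with and without quality weights), DESeq2 1.42.0 and its size factors, no filter, genes above 1 CPM in 6 or more libraries, a fit of the compared groups alone, a term for the range of the animal number, robust empirical Bayes, other thresholds and each mouse left out. Leaving out the 6 libraries that stood apart was chosen after seeing the data. The members, gene lists and tests were chosen with earlier results of these data known. Genes are named by a rule: up to 15 called genes per direction with the smallest p-values, up to 4 passing members of each list, Scd1 and Slc2a4, and none with a predicted name. Elovl6, Gpam, Acss2, Acly, Acaca, Fasn, Srebf1, Mlxipl, Thrsp, Cyp3a11, Cyp2c54, Cyp7a1, Cpt1a, Serpina12, A4gnt, Sucnr1, Acsl5, Sult1c2, Slc16a11, Fos, Egr1, H2-Q1, Rnd2 and Gm35986, and the genes under the other observations, were named after their values were seen. Promoter sequences are from RefSeq (GRCm38.p6).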

Additional observations from a re-analysis of the deposited data

Results flagged for a closer look

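In 11 cases the highest or lowest mouse of a group of 6 stood far from the others, judged by its gap to the nearest mouse as a share of the group's range on the log2 CPM scale (Dixon's test). As 154 groups of single genes were looked at, chance alone would give such cases in about 1 of 20.

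Among the CR20-CTRL mice, Rian was lowest in mouse 4, at 0.0816 CPM against 0.433 CPM in the next mouse (0.723 of the range). Nat8f7 was also lowest in mouse 4, at 1.96 CPM (0.656). Pax8 was lowest in mouse 5, which had no count, against 0.245 CPM (0.692). Mice 4 and 5 are among the libraries that stood apart.

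Among the CR20-HFD mice, Slc13a3 was lowest in mouse 32, which also stood apart, at 23.9 against 45.9 CPM (0.713). Gpam was lowest in mouse 7, at 88.4 against 134 CPM (0.699). Mouse 31 was the lowest for Serpina12, at 22.3 against 51.1 CPM (0.672), and the highest for Prss8, at 2.33 against 1.32 CPM (0.661), and for Cpt1a, which was at 322 CPM in the next mouse (0.656). Pnpla5 and A4gnt had counts in mouse 45 and in no other mouse on the high-fat diet, 1 and 2 counts, so that their gap filled the whole range (1.0). Endod1 was highest in mouse 46, at 7.13 against 5.72 CPM (0.627).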

How the results depend on the processing

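The number of called genes for CR20-HFD vs CR20-CTRL was 52 (11 higher, 41 lower), with 74 genes passing at any fold change (20 higher, 54 lower). It was 25 (3 higher, 22 lower; 38 passing, 9 higher and 29 lower) under limma voom without quality weights, 67 (23 higher; 147 passing, 53 higher and 94 lower) under voom with quality weights, 86 (21 higher, 65 lower; 178 passing, 51 higher and 127 lower) under DESeq2, and 11 (1 higher, 10 lower; 12 passing, 1 higher and 11 lower) when only the 2 groups compared were fitted, where fewer libraries estimate the spread. At an absolute log2FC of at least 0.58, 19 were higher. With each mouse left out, the calls ranged from 24 to 69 (4 to 16 higher, 20 to 59 lower) and the passing genes from 31 to 108 (7 to 23 higher, 24 to 89 lower). For FED-HFD vs FED-CTRL, 13 genes were called, 37 under voom with quality weights, 34 under DESeq2, 3 without the 6 libraries that stood apart, and 4 to 25 with each mouse left out. The causes of these shifts were not tested. The interaction called 0 genes under every alternative run. Of 77 named genes, Mlxipl, Cyp7a1 and Fos changed sign, none of which passed. Mlxipl stood at 0.17 under voom without quality weights. Cyp7a1 stood at 0.41 and 0.11 under voom with and without quality weights and at 0.12 without the 6 libraries. With each mouse left out the log2FC ranged from -0.33 to 0.31 for Cyp7a1 and from -0.15 to 1.17 for Fos. No paired analysis was possible because the 2 groups compared share no animal numbers. Genes under 3 counts per library, which was 0.148 to 0.245 CPM, could not be compared at this depth.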

Other observations

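The 21 further genes named here passed the adjusted p-value by edgeR and were chosen after their values were seen. Among the higher genes, Ivd, the isovaleryl-CoA dehydrogenase of leucine breakdown, had medians of 144 CPM in CR20-CTRL and 199 CPM in CR20-HFD (log2FC 0.46, SE 0.102, adjusted p = 0.0379). Aadat, an aminotransferase of lysine and kynurenine breakdown, had medians of 70.0 and 103 CPM (log2FC 0.59, SE 0.135, adjusted p = 0.0431). Gba2, the non-lysosomal glucosylceramidase, had medians of 31.2 and 52.6 CPM (log2FC 0.71, SE 0.162, adjusted p = 0.0431). Ildr2, a membrane protein of the immunoglobulin superfamily, was at 22.7, 32.4 and 44.7 CPM against 47.1, 52.2 and 62.1 CPM, with no overlap (log2FC 0.66, SE 0.138, adjusted p = 0.0252). Endod1, which encodes an endonuclease domain protein, was at 2.30, 3.07 and 3.68 CPM against 5.02, 5.56 and 7.13 CPM, also with no overlap (log2FC 0.92, SE 0.182, adjusted p = 0.0150).

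Among the lower genes of smaller change, Ces1e, a carboxylesterase, had medians of 341 and 222 CPM with no overlap (log2FC -0.82, SE 0.193, adjusted p = 0.0527). Enpep, the aminopeptidase A that cleaves angiotensin, was at 84.7, 95.7 and 154 CPM against 38.1, 58.0 and 72.5 CPM, again with no overlap (log2FC -0.96, SE 0.207, adjusted p = 0.0334). Gas6, a ligand of the TAM receptor kinases, had a log2FC of -0.71, Rnf145, a ubiquitin ligase of the endoplasmic reticulum, one of -0.74, Samd8, of the sphingomyelin synthase family, one of -0.67, Slc17a4, an organic anion transporter, one of -0.87, Hes6, a transcription factor gene, one of -0.84, and Cmtm6, a membrane protein known to stabilize PD-L1, one of -0.50. The lower genes with a log2FC past -1 were Pdzk1ip1 (-2.36), Col15a1, a basement membrane collagen (-1.66), Reck, an inhibitor of matrix metalloproteinases (-1.58), Cfap20dc (-1.56), Olfm3 (-1.55), H2-Q1, a class I histocompatibility gene (-1.34), Gas2 (-1.17) and Slc7a4 (-1.02). H2-Q1 has near-identical relatives, so that its count is uncertain.

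All 21 genes had the same sign in the offspring of FED dams, where none of them passed. Endod1 passed with every mouse of the CR20 groups left out, while the other 20 each missed the threshold at least once. Without the 6 libraries that stood apart, Pdzk1ip1, H2-Q1, Cfap20dc, Gas2, Slc7a4, Olfm3, Ildr2, Ivd, Gba2, Samd8, Gas6 and Aadat missed it, with adjusted p-values from 0.0609 for Cfap20dc to 0.157 for Slc7a4. Under limma voom with quality weights Pdzk1ip1, H2-Q1, Gas2, Slc7a4, Olfm3, Gba2, Samd8 and Gas6 missed it, with adjusted p-values of 0.0591 to 0.122.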
